A study of Mesocricetus auratus with 8 samples.

Results

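The matrix proteases and their inhibitors were examined in cultured Syrian hamster satellite cells (SCs) before and after cold exposure. Members were chosen by gene symbol alone, as the matrix metalloproteinases (Mmp), their tissue inhibitors (Timp), the Adam, Adamts and Adamtsl genes with a number, and the serpins of the E and H clades (Serpine, Serpinh). The pattern matched 66 symbols of the 31581 entries listed. Values were present for 62 of them, among 17590 genes with values, and 41 had enough counts to be tested, among 12506 genes tested. Adam21, Adam28, Adam29 and Mmp27 were listed without values. The choice used no measured level.

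SCs are the stem cells of skeletal muscle, and these were primary cultures from the hindlimb muscles of sexually mature, wild-type male Slc:Syrian hamsters, released with collagenase and enriched by preplating, which removes fast-adhering fibroblasts. Both groups were grown for 48 h at 37°C and for a further 24 h at 37°C in growth medium with 100 mM HEPES, a pH buffer. The control group (n = 4 libraries) was collected at this point, and the cold group (n = 4 libraries) after another 24 h at 4°C in the same medium. No library held at 37°C over the last 24 h was analysed here, so cold and the additional time in culture cannot be told apart. The study calls the replicates biological, and the sources used here do not say what a replicate number marks or how many animals gave each culture. For controls 1 to 4 the treatment field reads 3, 4, 5 and 6 days at 37°C, but the library names put them all on day 3, and the names were followed.

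Matrix metalloproteinases are zinc enzymes that cut collagens, laminins and other matrix proteins and are held in check by TIMPs. ADAMs are membrane-anchored relatives that shed the outer parts of receptors and ligands. ADAMTS enzymes are secreted and cut proteoglycans or trim procollagens, and the ADAMTS-like proteins share their binding modules but lack the protease domain. In muscle, these enzymes open the basement membrane and matrix around SCs as they migrate, and some ADAMs have been linked to myoblast fusion.

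The libraries held 16530747 to 18533801 expected counts each. The largest source of variation over all genes was not the cold, since the first principal component (54.5% of the variance) set replicates 1 and 2 against 3 and 4 in both groups, and the second (17.9%) set cold against control. Within each group replicates 1 and 2 were the most alike, so p-values from these replicates alone may be too small. Control and cold libraries of one number deviated together from their group means (correlation across genes 0.609 to 0.659), so a blocked fit, with a term for the replicate number, stands beside the unblocked one wherever a call differs. Of 14 listed markers of SCs and myoblasts, 13 had a mean of at least 1 TPM. Des was at 724 to 924 TPM in control and 735 to 850 TPM in cold libraries, and Pax7 at 10.8 to 15.8 TPM and 12.5 to 16.1 TPM. Pax3 did not exceed 0.62 TPM. Markers of differentiation and fusion were also high: Myog was at 449 to 1016 TPM in control and 292 to 628 TPM in cold libraries. Mymk was at 147 to 366 TPM and 58.5 to 129 TPM. TPM is an abundance scaled by transcript length and library size. Fibroblast markers were also present: the 16 markers with values summed to 1356 to 1909 TPM in control and 1332 to 1862 TPM in cold libraries, and to 1332 to 1429 TPM in replicates 1 and 2 against 1621 to 1909 TPM in replicates 3 and 4. Of these markers, Pi16 was at 0 in every library, Dpp4 was at 0.04 TPM or less, and 0 of the 14 tested were called in either fit. Fewer cells of a type and less RNA per cell cannot be told apart in these bulk libraries. The endothelial markers summed to at most 16.6 TPM. The leukocyte markers summed to 41.9 to 86.4 TPM in control and 38.5 to 81.4 TPM in cold libraries. Over all libraries, Cd68 was at 23.28 to 51.97 TPM, Fcer1g at 12.03 to 32.13 TPM and Csf1r at 2.31 to 4.55 TPM. The pan-leukocyte marker Ptprc did not exceed 0.03 TPM, and Adgre1, Itgam and C1qa did not exceed 0.1 TPM. Of the other marker lists, 0 of 5 endothelial, 0 of 3 leukocyte and 0 of 3 Schwann cell markers tested were called in either fit, and of 6 pericyte and smooth muscle markers Acta2 was lower with the block.

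The SC cultures expressed a broad set of these genes, headed by inhibitors and a collagen chaperone rather than by proteases. Of the 62 members with values, 34 had a mean of at least 1 TPM over the 8 libraries, 24 of at least 10 TPM and 6 of at least 100 TPM. Timp1 alone made up 36.5% of the members' summed TPM, and with Serpinh1 the share reached 57.3%. The members together held 0.479% to 0.584% of all TPM in control libraries and 0.500% to 0.579% in cold libraries. The groups therefore covered nearly the same range.

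**Figure D1:**
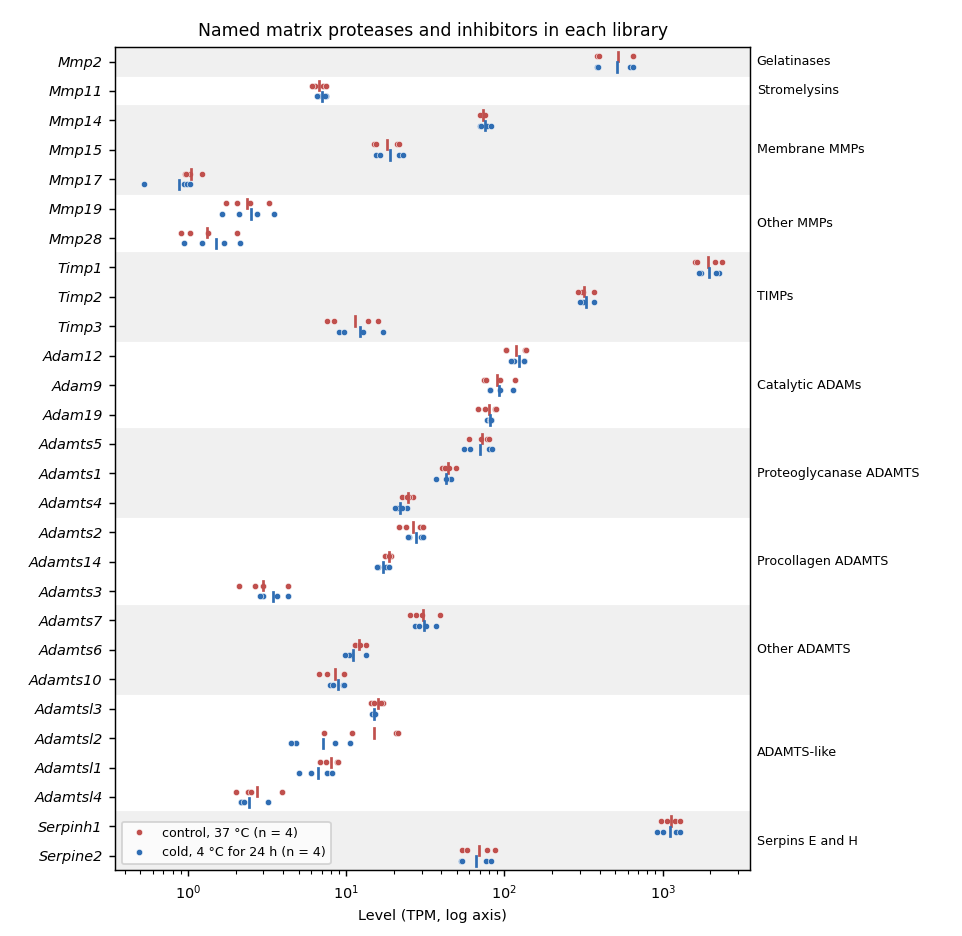
Level in TPM (log axis) of 28 named members in each of the 4 control libraries (red, upper points of each gene) and 4 cold libraries (blue, lower points), with a tick at each group's mean and the genes arranged by role. Red and blue points lie over one another for nearly every gene, from Timp1 at 1953 TPM on average down to Mmp17 at 0.961 TPM, and Adamtsl2 is the gene with the widest distance between its ticks.

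Cold exposure left nearly all members near their control level. With the study's thresholds, a 1-unit change on the log2 scale and adjusted p below 0.05, the quasi-likelihood test of edgeR without a block called 0 of the 41 tested members lower, against 0.04% of all genes tested, and 0 higher, against 0.0%. At adjusted p alone it called 0 members lower (0.072% of all genes) and 0 higher (0.0%). At an unadjusted p under 0.05, Adamts14 and Adamtsl2 were lower and Adam23 was higher. The share of all genes at that unadjusted threshold is not given here, so these are not set apart from all genes. DESeq2 and limma, also without a block, each called 0 members. With the replicate block, 1 member, Adamtsl2, was lower at both thresholds (0.808% of all genes) and 0 were higher (0.04%). At adjusted p alone, the block gave 3 members lower, Adamtsl2, Adamtsl1 and Adamts4 (4.07% of all genes), and 0 higher (1.26%). Counts of 1 and 3 among 41 members are too few to set the members apart from these shares of all genes.

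The small changes were measured closely for most members, as for most genes. With the block, the 95% interval of the fold change lay within 1.5-fold in either direction for 35 of 41 members, against 88.5% of all genes, and for 23 of the 24 members of at least 10 TPM, against 98.6% of all such genes. The exception among these 24 was Adamtsl2. The other members whose intervals reached past 1.5-fold were Adam22, Adam23, Mmp9, Mmp10 and Mmp17, all with means under 1 TPM. Without the block, 28 intervals lay within 1.5-fold (79.1% of all genes). The log2 fold change was smaller than 0.1 in size for 27 members without the block (65.1% of all genes) and for 26 with it (65.0%). The fold changes split evenly in direction, with 20 below 0 and 21 above 0. Their median on the log2 scale was 0.0048, beside 0.0071 over all genes tested, and with the block it was 0.0027, beside 0.0075.

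**Figure D2:**
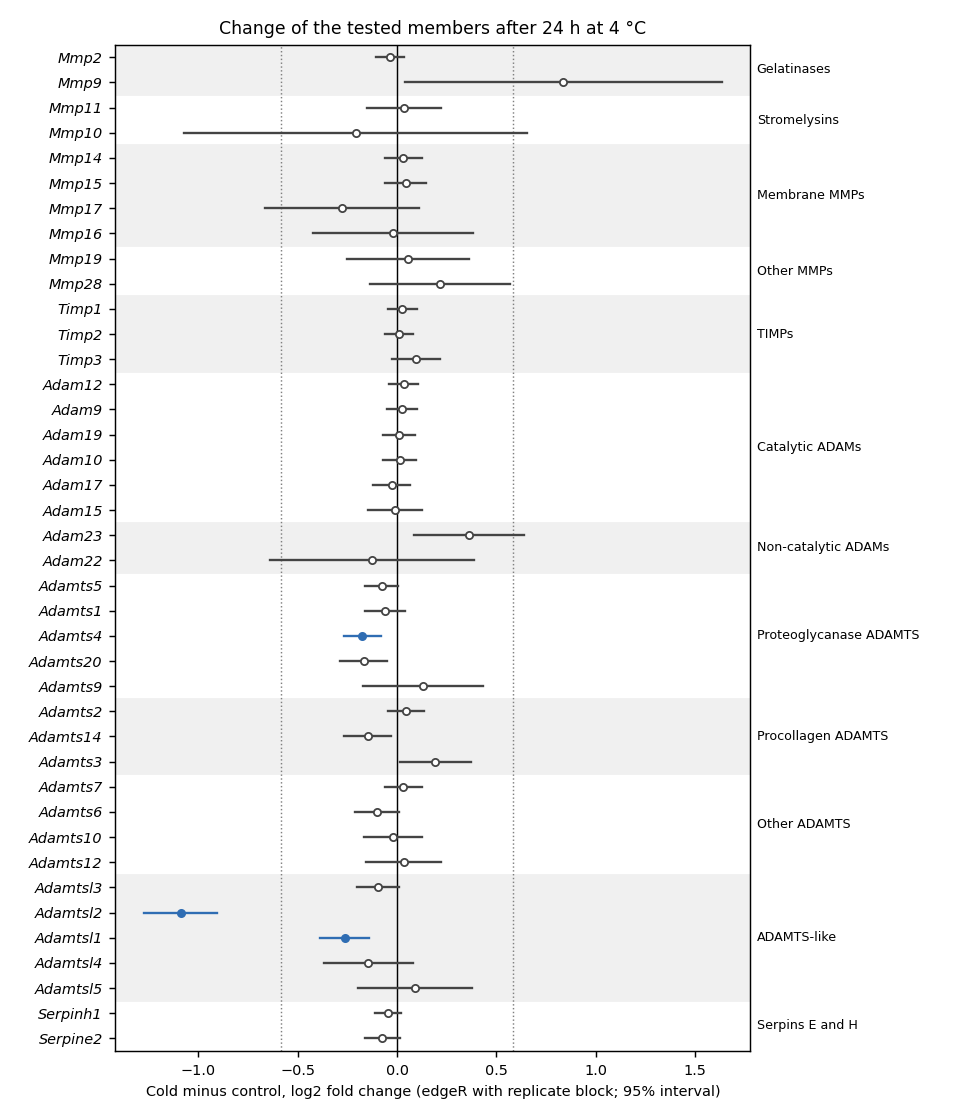
Cold minus control log2 fold change of 40 tested members from edgeR with the replicate block, as points with 95% intervals, arranged by role. Filled blue points mark adjusted p under 0.05 (Adamtsl2, Adamtsl1 and Adamts4), open points the other members, and dotted lines a 1.5-fold change. Apart from Adamtsl2 and the low genes with wide intervals, the points crowd around 0.

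Among the matrix metalloproteinases, 10 were tested and 0 were called in either fit. Mmp2, gelatinase A, which cuts basement membrane collagen and denatured collagen, was by far the most abundant. Its levels in control replicates 1 to 4 were 383, 398, 649 and 645 TPM, and in cold replicates 1 to 4 they were 382, 392, 623 and 649.57 TPM. Replicates 1 and 2 were low and replicates 3 and 4 high in both groups, so the groups overlapped almost completely. The mean was 519 ± 148 TPM (SD, n = 4) in control and 512 ± 144 TPM in cold libraries, a log2 fold change of −0.03 (edgeR with the replicate block, adjusted p = 0.643), with a 95% interval from −7.01% to 2.50%.

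Mmp14, the membrane-bound enzyme that activates pro-Mmp2 at the cell surface, was more even across libraries. It stood at 72.8, 73.3, 69.6 and 75.4 TPM in control and at 77.6, 70.3, 71.5 and 82.4 TPM in cold libraries. The groups overlapped, and the blocked interval ran from −4.10% to 8.97% (edgeR, adjusted p = 0.767). Mmp15, another membrane-bound enzyme, was at 15.1, 15.3, 20.9 and 21.6 TPM in control and at 15.3, 16.3, 21.5 and 23.0 TPM in cold libraries. It was slightly higher in the cold library of each of the 4 pairs, by a log2 fold change of 0.04 that did not pass the test (edgeR with the block, adjusted p = 0.694). Mmp17, which is held in the membrane by a lipid anchor, was near 1 TPM, with a mean of 1.05 ± 0.126 TPM (SD, n = 4) in control and 0.875 ± 0.232 TPM in cold libraries.

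The remaining metalloproteinases were low. Mmp11, a stromelysin that furin activates inside the cell, was at 6.04 to 7.50 TPM in control and at 6.50 to 7.48 TPM in cold libraries. Mmp19 was at 1.73 to 3.24 TPM and 1.65 to 3.49 TPM, and Mmp28, also called epilysin, at 0.91 to 2.03 TPM and 0.95 to 2.14 TPM. The inducible enzymes of inflamed tissue were low. Mmp9, gelatinase B, had counts of 3, 4, 12 and 11 in control and 2, 8, 10 and 35 in cold libraries. Its blocked log2 fold change of 0.84 (SE 0.380, edgeR adjusted p = 0.248) was not called, and the count of 35 in cold replicate 4 stood far above the other libraries. The collagenases Mmp8 and Mmp13 had at most 3 counts in any library, and Mmp8 and Mmp20, the enamel protease, were at 0 counts in all 8.

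Several metalloproteinase genes are neighbours. In the order of the RefSeq annotation (assembly BCM_Maur_2.0, used for order only), Mmp13, Mmp12, Mmp10, Mmp8, Mmp27, Mmp20 and Mmp7 follow one another with few other entries between them. The highest level in any library among those with values was 1.36 TPM, for the stromelysin Mmp10 in control replicate 3. The stretch also holds unnamed protein-coding entries that the symbol pattern does not match. LOC101834647 was at 0.87 to 5.23 TPM in control and 1.38 to 5.92 TPM in cold libraries, and LOC101824185 was at 0 TPM in every library.

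The TIMPs, which block the active site of metalloproteinases, were not called in either fit. Timp1 was at 1599.85, 1639, 2354 and 2142 TPM in control replicates 1 to 4 and at 1747, 1695, 2267 and 2177 TPM in the cold replicates. As with Mmp2, replicates 3 and 4 were higher than replicates 1 and 2 on both sides of the comparison. The mean was 1934 ± 373 TPM (SD, n = 4) in control and 1971 ± 293 TPM in cold libraries, a log2 fold change of 0.03 with the block (edgeR adjusted p = 0.753) and an interval from −3.15% to 7.07%. Timp2, which both inhibits Mmp2 and serves as its docking partner on Mmp14, was at 314, 307, 366 and 292 TPM in control and 321, 315, 366 and 301 TPM in cold libraries. It was higher in the cold library of each of the 4 pairs, yet by so little that the log2 fold change was 0.01 (edgeR with the block, adjusted p = 0.925).

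Timp3, which binds to the matrix and also inhibits several ADAMs and ADAMTS enzymes, was at 7.58, 8.40, 15.8 and 13.6 TPM in control and 9.01, 9.75, 17.1 and 12.7 TPM in cold libraries. Its interval with the block ran from −1.74% to 16.003% (edgeR adjusted p = 0.414). Timp4 was not tested, with at most 13 counts in a library. The summed TPM of the TIMPs was 3.24 to 3.99 times that of the metalloproteinases in control libraries and 3.23 to 4.25 times in cold libraries.

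Of the ADAMs with a catalytic site, 6 were tested and 0 were called. Adam12, or meltrin alpha, a gene of regenerating muscle that has been linked to myoblast fusion, was at 102, 103, 135 and 136 TPM in control and at 114, 110.44, 134 and 133 TPM in cold libraries. Its mean was 119 ± 19.3 TPM (SD, n = 4) against 122.8 ± 12.2 TPM, with an interval from −2.61% to 7.63% (edgeR with the block, adjusted p = 0.661). Adam19, or meltrin beta, was at 68.3, 75.2, 87.2 and 89.0 TPM in control and at 77.2, 81.1, 81.7 and 82.2 TPM in cold libraries, so the cold values lay inside the control range. Adam9, or meltrin gamma, was at 74.6 to 117 TPM and 80.5 to 113 TPM.

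The sheddases Adam10, which cleaves Notch receptors, and Adam17, which releases growth factors and TNF, were at 60.7 to 67.7 TPM and 23.2 to 28.3 TPM in control libraries. In cold libraries Adam10 was at 61.2 to 67.4 TPM and Adam17 at 23.5 to 26.2 TPM. The 6 catalytic ADAMs had log2 fold changes between −0.03 and 0.03 with the block.

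Adam22 and Adam23 lack a working catalytic site and act as receptors at the cell surface. Adam23, named after its values were seen, was the single tested member whose groups did not overlap, against 2.27% of all genes with cold higher. It was at 0.73, 0.88, 0.90 and 0.84 TPM in control and at 1.08, 1.22, 1.01 and 1.03 TPM in cold libraries. Every cold library was above every control library, at a low level. The log2 fold change of 0.36 (SE 0.131) was not called with the block (edgeR adjusted p = 0.135). No tested member had its cold libraries all below its control libraries, against 2.41% of all genes.

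The proteoglycanases of the ADAMTS family cut versican and aggrecan, and they were expressed at intermediate levels. Adamts5, an aggrecanase that also clears versican around fusing myoblasts, was at 77.9, 79.9, 60.2 and 71.1 TPM in control and at 79.7, 83.5, 55.9 and 60.8 TPM in cold libraries. The groups overlapped, and its interval ran from −10.4% to 0.289% (edgeR with the block, adjusted p = 0.306). Adamts1 was at 40.2 to 49.2 TPM and 37.1 to 45.95 TPM, with no call. Adamts20 was at 5.31 to 7.47 TPM in control and 5.21 to 6.39 TPM in cold libraries.

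Adamts4, another aggrecanase, was a little lower in each pair. It was at 22.5, 26.6, 24.9 and 24.1 TPM in control and at 20.8, 24.3, 22.5 and 20.3 TPM in cold libraries. The groups overlapped, since cold replicate 2 was above control replicates 1 and 4, while in each of the 4 pairs the cold library was the lower one. The mean was 24.5 ± 1.70 TPM (SD, n = 4) against 22.0 ± 1.79 TPM, and the exact two-sided permutation test, which ignores the pairs, gave p = 0.143. The log2 fold change was −0.18 in both fits, with an adjusted p of 0.751 without and 0.0228 with the block (edgeR, SE 0.0442 with the block). That call was not made by DESeq2 with the block (adjusted p = 0.228). It was also lost when replicate number 1, 2 or 3 was left out of the blocked edgeR fit (adjusted p = 0.0600, 0.111 and 0.0582).

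The ADAMTS enzymes that remove the N-propeptide of fibrillar procollagens, Adamts2, Adamts3 and Adamts14, were not called. Adamts2 was at 21.4, 24.1, 29.4 and 30.8 TPM in control and 25.0, 24.5, 29.8 and 30.7 TPM in cold libraries, with an interval from −3.06% to 9.93%. Adamts14 was at 17.5, 18.9, 19.3 and 18.6 TPM in control and at 15.8, 15.8, 17.8 and 18.6 TPM in cold libraries. It was lower in the cold library of each of the 4 pairs, with a log2 fold change of −0.15 (edgeR with the block, adjusted p = 0.148). The pair of replicate 4 differed least. Replicates 1 and 2 alone gave −0.27 (edgeR adjusted p = 0.00940), replicates 3 and 4 alone gave −0.04 (edgeR adjusted p = 0.997), and the blocked fit without replicate number 4 gave −0.21 (edgeR adjusted p = 0.0240). Adamts3 was low, at 2.09 to 4.28 TPM and 2.86 to 4.26 TPM, and its log2 fold change of 0.19 was not called (edgeR with the block, adjusted p = 0.226).

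Of the other ADAMTS enzymes, Adamts7, which cuts cartilage oligomeric matrix protein, was at 25.5 to 38.9 TPM in control and 27.1 to 36.8 TPM in cold libraries. Adamts6 and Adamts10, which act on fibrillin microfibrils and the adhesions around them, were at 11.3 to 13.3 TPM and 6.74 to 9.75 TPM in control libraries. In cold libraries they were at 9.83 to 13.4 TPM and 7.95 to 9.71 TPM. With Adamts12, the 4 tested genes of this group had log2 fold changes between −0.10 and 0.03 with the block, and 0 were called.

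The ADAMTS-like proteins have no protease domain and sit in fibrillin microfibrils and other matrix. All 5 were tested. At adjusted p alone with the block, Adamtsl1 and Adamtsl2 were lower (4.07% of all genes) and 0 were higher (1.26%), and DESeq2 with the block did not call Adamtsl1. Their summed TPM was 48.8, 49.3, 37.9 and 39.7 in control replicates 1 to 4 and 32.9, 35.4, 33.4 and 33.4 in cold replicates 1 to 4. Every cold library lay below every control library in this sum, most of which came from Adamtsl3 and Adamtsl2. That was true of no single ADAMTS-like gene, and of 2.41% of all genes taken singly. The summed TPM of the MMPs, TIMPs, ADAMs, ADAMTS enzymes and serpins each overlapped between the groups. No test was run on the ADAMTS-like sum.

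Adamtsl2 binds fibrillin and latent TGF-beta binding proteins, and its mutation causes geleophysic dysplasia, a disorder of short stature and thick skin. It was at 20.6, 21.2, 7.23 and 10.8 TPM in control replicates 1 to 4 and at 8.53, 10.6, 4.80 and 4.45 TPM in cold replicates 1 to 4. In each of the 4 pairs the cold library was the lower one. The groups still overlapped, since control replicate 3 was lower than cold replicates 1 and 2, and control replicate 4 was close to cold replicate 2. The mean was 14.98 ± 7.03 TPM (SD, n = 4) in control and 7.10 ± 2.99 TPM in cold libraries, and the exact two-sided permutation test gave p = 0.114. Without the block, the log2 fold change was −1.11 (SE 0.409, edgeR adjusted p = 0.630). With the block it was −1.09 (SE 0.0870, edgeR adjusted p = 7.41e-08), which corresponds to a decrease with a 95% interval from −58.6% to −46.7%.

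The decrease in Adamtsl2 was below 0 in each of the 29 settings run, at log2 fold changes between −1.39 and −0.88. DESeq2 with the block gave −1.07 (adjusted p = 1.12e-16). Replicates 1 and 2 alone gave −1.20 (edgeR adjusted p = 4.59e-09), and replicates 3 and 4 alone gave −0.95 and no call (edgeR adjusted p = 0.139). Leaving out replicate number 1 brought the blocked value to −0.99, just short of the fold threshold, with an edgeR adjusted p of 1.32e-09.

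The highest controls of Adamtsl2 were replicates 1 and 2, and not 3 and 4 as for Mmp2 and Timp1. Its next neighbour in the RefSeq order is Mymk, or myomaker, the membrane protein required for myoblast fusion, which is no member. Mymk was at 366, 349, 147 and 178 TPM in control and at 106, 129, 58.5 and 62.3 TPM in cold libraries. Its levels were thus high in the same control libraries and fell in all 4 pairs, with a log2 fold change of −1.54 (edgeR with the block, adjusted p = 6.96e-12). The other tested genes within 7 entries, Vav2, Sardh, Slc2a6, Cacfd1 and Rexo4, had log2 fold changes between −0.11 and 0.06 and were not called (edgeR with the block, adjusted p between 0.395 and 0.929). Adamtsl2 also overlaps a noncoding entry, LOC121140317, that had no values, and since the strand setting of the counting is not given in the sources used here, reads from the pair could not be told apart. In all, 16 of the 41 tested members, Adamtsl1 and Mmp2 included, overlap another entry of that annotation.

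**Figure D3:**
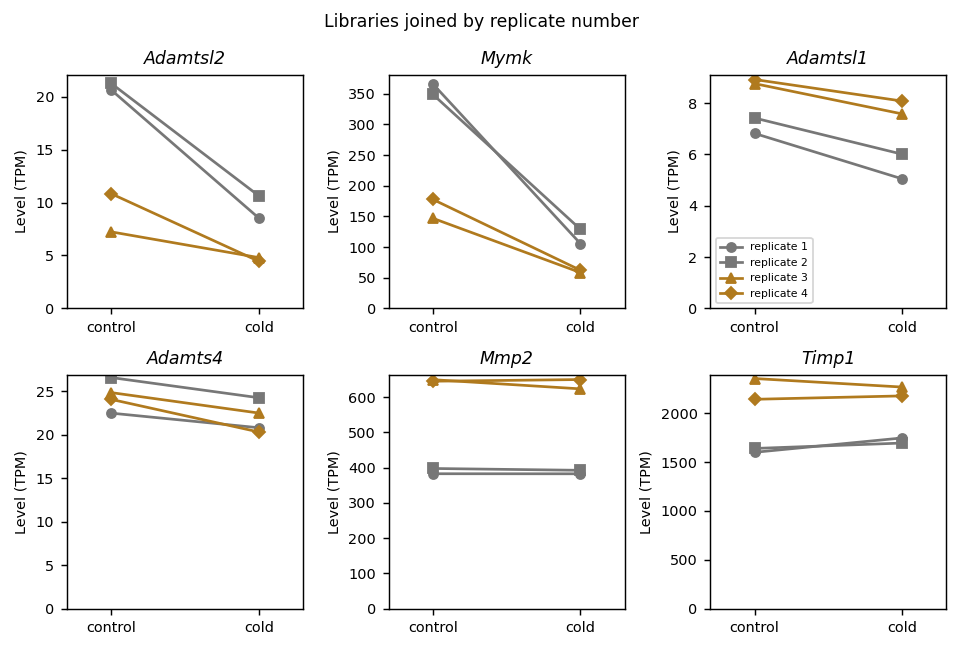
Level in TPM (linear axes from 0) of 5 members and of Mymk in control and cold libraries, with lines joining libraries of the same replicate number (grey, replicates 1 and 2; brown, replicates 3 and 4). All 4 lines fall for Adamtsl2, Mymk, Adamtsl1 and Adamts4, whereas the lines of Mmp2 and Timp1 run nearly level, with replicates 3 and 4 above replicates 1 and 2.

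Some markers of SCs and myoblasts were also lower in the cold. Of the 14 listed, all tested, 7 were lower at adjusted p alone with the block (4.07% of all genes), of which Mymk alone passed the fold threshold, and 1, Megf10, was higher (1.26% of all genes). Pax7, Pax3, Myf5, Des, Msc and Heyl were not called, and without the block 0 were. Myog, the transcription factor of terminal differentiation, had a mean of 738 ± 316 TPM (SD, n = 4) in control and 449 ± 172 TPM in cold libraries, a log2 fold change of −0.71 (edgeR with the block, adjusted p = 2.96e-09). The summed level of these markers was 2923 to 4080 TPM in control and 2459 to 3201 TPM in cold libraries. The part of these markers in the decrease of Adamtsl2 was not tested.

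Adamtsl1, or punctin, a secreted matrix glycoprotein, was at 6.82, 7.42, 8.76 and 8.92 TPM in control and at 5.05, 6.01, 7.58 and 8.08 TPM in cold libraries. The cold library was again the lower one in each of the 4 pairs, while replicates 3 and 4 were the higher ones in both groups. The mean was 7.98 ± 1.02 TPM (SD, n = 4) against 6.68 ± 1.40 TPM, and the exact two-sided permutation test gave p = 0.200. The log2 fold change was −0.26 (SE 0.0595, edgeR with the block, adjusted p = 0.0106), and without the block it was −0.25 (adjusted p = 0.879). The call was lost with DESeq2 and the block (adjusted p = 0.0594) and when replicate number 1 or 2 was left out (edgeR with the block, adjusted p = 0.0700 and 0.0610). Replicates 1 and 2 alone gave −0.40 (edgeR adjusted p = 0.00353), and replicates 3 and 4 alone gave −0.15 (edgeR adjusted p = 0.997).

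The other ADAMTS-like genes were not called. Adamtsl3 was at 17.2, 16.7, 14.3 and 15.1 TPM in control and at 15.03, 14.96, 14.5 and 15.2 TPM in cold libraries, with a log2 fold change of −0.10 (edgeR with the block, adjusted p = 0.328). Adamtsl4, another fibrillin-binding protein, was at 2.01 to 3.94 TPM in control and 2.15 to 3.20 TPM in cold libraries. Adamtsl5 was at 1.53 to 3.76 TPM and 1.68 to 3.39 TPM.

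Neither Serpinh1 nor Serpine2, of the serpin clades H and E, was called. Serpinh1, the collagen chaperone HSP47, carries the serpin fold but inhibits no protease. It was at 1188, 1282, 970.13 and 1059.93 TPM in control and at 1206, 1295, 919 and 1001 TPM in cold libraries. Unlike Mmp2 and Timp1, it was higher in replicates 1 and 2 in both groups, and its interval with the block ran from −7.57% to 1.23% (edgeR adjusted p = 0.459). Serpine2, protease nexin, an inhibitor of thrombin and plasminogen activators, was at 54.3 to 87.1 TPM and 53.3 to 82.6 TPM. It was lower in the cold library of each of the 4 pairs, with a log2 fold change of −0.07 that was not called (edgeR with the block, adjusted p = 0.388).

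Among the tested members, 6 were lower in the cold library of each of the 4 pairs, Adamts4, Adamts14, Adamts20, Adamtsl1, Adamtsl2 and Serpine2, against 10.5% of all genes. Those higher in each of the 4 pairs were Adam23, Mmp15 and Timp2, against 12.8% of all genes.

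For most members, as for most genes, libraries of one condition differed more than the means of the 2 conditions. For 32 of the 41 tested members, the control and cold means differed by less than the SD of the 4 control libraries (76.2% of all genes). Over the 34 tested members of at least 1 TPM, the highest control library was at a median of 1.42 times the lowest, and the highest cold library at 1.38 times the lowest. Over the 11420 tested genes at this level the medians were 1.23 and 1.20. In 22 of the 41 members, the 4 libraries of replicates 3 and 4 all lay above the 4 libraries of replicates 1 and 2 (23.5% of all genes). This held for Mmp2, Mmp15, Mmp19, Timp1, Timp3, Adam9, Adam12, Adam19 and Serpine2 among others. The reverse held for 3 members, Adamts5, Mmp11 and Serpinh1 (9.09% of all genes). Since the split between these replicates was read from the first principal component of the same libraries, these counts are a description and were not tested. The sum of the fibroblast markers was on the same side as the larger group (1621 to 1909 TPM in replicates 3 and 4 against 1332 to 1429 TPM in replicates 1 and 2). Singly, Col1a1, Col1a2, Osr1 and Gsn overlapped and had lower means in replicates 3 and 4, and Pdgfrb and Cd34 overlapped too. The sum of the leukocyte markers (62.2 to 86.4 TPM against 38.5 to 45.2 TPM), led by Cd68 with Ptprc near 0, was also higher in replicates 3 and 4. So was the sum of the endothelial markers (11.7 to 16.6 TPM against 9.06 to 10.5 TPM), led by Eng. Of the SC and myoblast markers, Myf5 and Msc were higher in replicates 3 and 4, Myog, Itga7, Megf10 and Heyl were lower there, and the rest overlapped. The part of any of these in the members' levels was not tested.

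**Figure D4:**
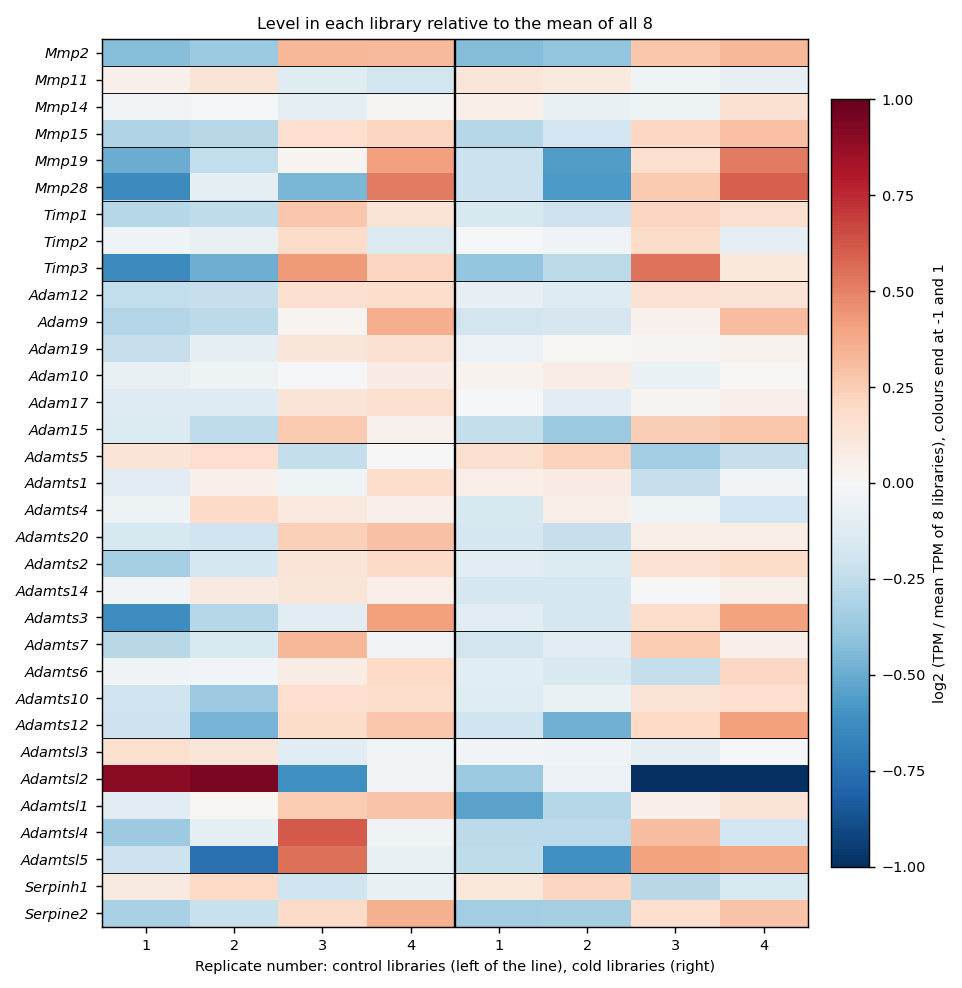
Level of 33 tested members of at least 1 TPM in each library, as log2 of the TPM over the gene's mean of all 8 libraries (blue, below the mean; red, above it), with control libraries left and cold libraries right of the line and the genes arranged by role. For Mmp2, Timp1 and Timp3 replicates 3 and 4 are red and replicates 1 and 2 blue in both groups, while Adamtsl2 is red in control replicates 1 and 2 and deepest blue in cold replicates 3 and 4.

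Of the 62 members with values, 21 were too low to be tested. In 9 of them no library held more than 3 counts, which was taken as the floor of detection and covers counting error only. The other 12 reached at most 22 counts. That highest count belonged to Adamts8, a proteoglycanase, which had counts of 22, 8, 3 and 4 in control and 5, 3, 1 and 0 in cold libraries. It was lower in the cold library of each of the 4 pairs, and with no filter on low counts the blocked fit called it (log2 fold change −2.06, edgeR adjusted p = 0.0283). The share of all genes called in that fit is not given here, and control replicate 1 stood far above the other controls. Adam11, a receptor-like ADAM, had counts of 2, 3, 2 and 4 in control and 0, 0, 0 and 1 in cold libraries. Adamts13, which cuts von Willebrand factor, had at most 1 count, and Adam8 and Mmp7 each had a single count in 1 library.

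The plasminogen system, which activates several metalloproteinases and is held in check by serpins, was examined from a separate list. Of 15 genes listed, 14 had values, 9 were tested and 0 were called in either fit. Plau, the urokinase-type activator, had a mean of 41.6 ± 7.59 TPM (SD, n = 4) in control and 43.6 ± 4.84 TPM in cold libraries (edgeR with the block, log2 fold change 0.06, adjusted p = 0.548). Its receptor Plaur was at 33.4 ± 3.44 TPM and 36.9 ± 5.49 TPM (edgeR with the block, log2 fold change 0.13, adjusted p = 0.311). Lrp1, which takes up protease and inhibitor complexes, was at 42.9 ± 5.03 TPM and 43.6 ± 4.87 TPM.

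Of 37 further matrix proteases, activators and inhibitors listed, 32 had values and 26 were tested. At adjusted p alone, 1 was lower (4.07% of all genes) and 0 were higher (1.26%) with the block, and without it 0 were called. The gene called was Spock2, or testican, a matrix proteoglycan, at 1.53, 1.42, 0.49 and 0.38 TPM in control and 0.90, 0.76, 0.45 and 0.34 TPM in cold libraries (edgeR with the block, log2 fold change −0.65, adjusted p = 0.0342). The most abundant genes of this list were not called: Bsg, an inducer of metalloproteinases, had a mean of 453 ± 21.5 TPM (SD, n = 4) in control and 445 ± 23.2 TPM in cold libraries. Serpinf1, a secreted serpin, was at 354 ± 77.3 TPM and 336 ± 64.1 TPM, and Ctsd, the lysosomal cathepsin D, at 335 ± 27.0 TPM and 332 ± 23.6 TPM.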

How the data were processed

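RNA was sequenced from 4 control and 4 cold SC cultures as poly(A) libraries with paired-end reads. The authors deposited 1 table with, for each gene and library, an expected count of reads that is not normalized, a TPM value scaled within the library, and a normalized count, a signal scaled by the authors that was read but not tested here. HISAT and HISAT2 are named in the submitters' processing notes, while the program used for counting, its strand setting and the build are not given in the sources used here, so no coordinates are printed. Between 96.4% and 96.6% of a library's expected counts were exactly whole as deposited, with no tolerance, and so were all counts of the members. The identifiers of the 62 members with values all matched RefSeq (assembly BCM_Maur_2.0).

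Expected counts were rounded and tested over all genes with edgeR 4.0.16 in R 4.3.3 (filterByExpr, TMM, quasi-likelihood test, Benjamini-Hochberg over 12506 genes), at the study's thresholds and at adjusted p alone. Because the groups share replicate numbers, the pairing was checked: deviations from the group mean correlated at 0.609 to 0.659 between libraries of the same number, at 0.432 to 0.591 between other numbers that the first component placed together, and at −0.553 to −0.609 between the rest. The numbers were taken to pair the libraries, and the blocked fit is given beside the unblocked one. Depth was 16530747 to 18533801 expected counts. No library was a copy of another. Chi-square per gene between replicates 1 and 2 was 2.39 in control and 2.71 in cold libraries, and between replicates 3 and 4 it was 6.71 and 4.61. The other pairs within groups were at 18 to 25.7. Whether replicates 1 and 2 share a source is not given in the sources used here, which limits the fits on them alone. Single genes were also compared by TPM with an exact two-sided permutation test over 70 arrangements. Alternatives used DESeq2 1.42.0, limma 3.58.1 on log2(TPM + 0.1) or log2(TPM + 1), other scalings and filters, single libraries left out, and replicates 1 and 2 or 3 and 4 alone. Scripts ran on simulated counts first.

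The members, the lists of related and marker genes, and the tests were chosen with earlier results of these data known. Members were named if called in either fit, if among the 3 most abundant of their role at a mean of at least 1 TPM, or if a library stood apart by Dixon's criterion. Other members, such as Adam10, Adam17, Adam22, Adam23, Mmp9, Mmp10, Adamts8, Adamts12, Adamts20, Adamtsl5 and Adam11, fall outside this rule and were chosen after their values were seen. 1 member, included in the counts, is not reported here, and further members are covered only by the counts and ranges. Figures used matplotlib 3.10.9 (Python 3.11.15).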

Additional observations from a re-analysis of the deposited data

Results flagged for a closer look

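In the 82 groups of 4 libraries formed by the 41 tested members in control and cold, 2 held a library whose gap to its nearest neighbour, as a share of the group's range, was above Dixon's 95% critical value, beside 4.1 that chance would give at 1 in 20 groups. Mmp17, the lipid-anchored metalloproteinase, was at 0.53 TPM in cold replicate 3, while the other cold libraries were at 0.95 to 1.03 TPM. The low value stood on 21 counts, against 39 to 41 in the other cold libraries. Adamtsl4, the fibrillin-binding protein, was at 3.20 TPM in cold replicate 3, while the other cold libraries were at 2.15 to 2.26 TPM. Control replicate 3 was also the highest of its group for Adamtsl4, at 3.94 TPM.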

How the results depend on the processing

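Without a block, the counts of members called were 0 in each direction under RLE factors, library totals, DESeq2, no filter beyond 1 count, the filter at a mean of 10 counts, the 3 limma settings, each of the 8 libraries left out, and replicates 3 and 4 alone. The replicate block, which rests on the pairing of the numbers, gave 1 member lower at both thresholds and 3 at adjusted p alone, and no higher call. The block combined with RLE factors, library totals or the filter at a mean of 10 counts gave the same counts, 1 and 3. With DESeq2 and the block they were 1 and 1, and with no filter and the block 2 and 4, Adamts8 being the member added. These combinations were added after seeing the data. Replicates 1 and 2 alone gave 1 and 3. Shares of all genes called are given here only for the main edgeR fits without and with the block. Counts under the other settings are therefore not set against all genes. With single libraries or replicate numbers left out, the counts ranged from 0 to 1 at both thresholds and from 0 to 4 at adjusted p alone, the 0 at both thresholds with the block coming without number 1 and the 4 without number 4. Over all genes the block moved the calls from 5 lower and 0 higher to 101 lower and 5 higher at both thresholds, and from 9 and 0 to 509 and 158 at adjusted p alone. The members' median log2 fold change ranged from −0.0679 (without cold replicate 4) to 0.0397 (without control replicate 3) with libraries left out.

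Of 784 log2 fold changes of the 28 named members under alternatives, 680 kept their direction and side of the threshold, 27 gained a call and 77 changed sign, none of the last above 0.146 in size. Adam19 turned to −0.0015 without a filter, and Adamts10 to 0.0813, 0.0725 and 0.0813 in limma. Replicates 1 and 2 alone gave 0.0391 for Adamts1, −0.0379 for Mmp11, −0.0440 for Mmp14, −0.0072 for Mmp15, −0.0653 for Mmp19, −0.1088 for Mmp28 and −0.0291 for Timp2. Replicates 3 and 4 alone gave −0.0080 for Adam12, −0.0649 for Adam19, −0.0040 for Adam9 and −0.0084 for Timp1. The causes were not tested. Leaving out libraries gave these ranges where the sign changed: Adam12 −0.0285 to 0.0813, Adam19 −0.0557 to 0.0372, Adam9 −0.0932 to 0.1466, Adamts1 −0.1294 to 0.0075, Adamts10 −0.0916 to 0.0528, Adamts2 −0.0350 to 0.1028, Adamts5 −0.1792 to 0.0281, Adamts7 −0.0603 to 0.1500, Adamtsl4 −0.3083 to 0.0397, Mmp11 −0.0348 to 0.0982 and Mmp14 −0.0144 to 0.0725. The others were Mmp15 −0.0567 to 0.1353, Mmp19 −0.1464 to 0.2242, Mmp2 −0.1647 to 0.0849, Serpine2 −0.1906 to 0.0392, Serpinh1 −0.1451 to 0.0375, Timp1 −0.0514 to 0.1098, Timp2 −0.0506 to 0.0576 and Timp3 −0.1142 to 0.2712. Depth limited the 21 members of at most 22 counts, which were not tested in the fits with the filter.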
